A study of Arabidopsis thaliana with 12 samples.

Results

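The comparison described here set total leaf RNA of the otp90 mutant against that of the wild type (WT), gene by gene. The members are the 6 libraries that the labels name Total, 3 per genotype, of the 12 libraries in the series, and all 32743 genes of their count tables. The plants were Arabidopsis thaliana in the Columbia-0 (Col-0) background, grown in long days without treatment and harvested as leaves at 35 days, in what the labels call a vegetative state. WT was Col-0 with no insertion, and otp90 was a homozygous line with a T-DNA insertion in OTP90 (AT1G25360). This single insertion line stands for the mutant in all 3 otp90 libraries. OTP90 encodes a pentatricopeptide repeat protein, a class of RNA-binding proteins that mark cytidines for editing to uridine in mitochondrial and plastid transcripts. The other 6 libraries, named Mito, came from the same genotypes, and their values are given only beside those of Total. The labels do not say whether replicates were separate plants or pools, so the p-values measure the spread between these libraries.

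Transcripts of leaf cells come from 3 genomes. The mitochondrial genome encodes part of the respiratory chain and of the cytochrome c maturation machinery, the plastid genome encodes part of the photosynthetic apparatus, and the nucleus encodes the rest of both. When mitochondria are impaired, plants are known to raise nuclear genes such as the alternative oxidase gene AOX1A. Leaf defence is a separate programme, in which salicylic acid made through ICS1 turns on the PATHOGENESIS-RELATED genes, and secretion of their products draws on chaperones of the endoplasmic reticulum.

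The depth of the WT libraries ran from 49434596 to 52443538 counts, that of the otp90 libraries from 56800553 to 60464017, and 21966 to 22726 genes were detected in each. Plastid genes took 56.7 to 62.2% of the counts, and the plastid gene psbA alone 24.5 to 34.8%. Leaf identity was checked with 5 mesophyll markers, which were all abundant, while the 4 root markers and the 3 seed storage markers stayed at or below 0.0349 CPM (the count of a gene as a share of its library, scaled by the trimmed mean of M-values, TMM) in every library. OTP90 itself had 8, 16 and 6 counts in WT and 6, 10 and 7 in otp90, summed over both sides of the insertion, so its level does not check the labels.

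No gene passed the threshold of the edgeR quasi-likelihood test between otp90 and WT (Benjamini-Hochberg adjusted p at or below 0.05), which makes 0 of 15373 genes tested, or 0%. The smallest adjusted p was 0.9997. At an unadjusted p under 0.05 there were 458 genes (2.98% of those tested), 251 higher in otp90 (1.63%) and 207 lower (1.35%). The members of each list are read against these shares. Without scaling factors, with library size alone, the split was 123 higher and 327 lower and the median of all genes moved from 0.00 to -0.09 on the log2 scale. The split was 448 higher and 306 lower without WT replicate 2, and 261 and 591 without otp90 replicate 2. It was 169 and 93 without WT replicate 3, 188 and 115 without otp90 replicate 1, and 137 and 110 without otp90 replicate 3. Other tools called more genes. The edgeR likelihood ratio test called 11 genes, the DESeq2 Wald test 18, and the quasi-likelihood fit of all 12 libraries 3 (YSL2, FLC and AT1G22550), whereas limma voom with quality weights called 0. A second description used only the order of the libraries. In 705 genes (4.59%) all 3 otp90 libraries lay above all 3 WT libraries, and in 653 (4.25%) they lay below, 8.83% in all.

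The spread between replicates of the same genotype was widest, among the pathway lists, in the salicylic acid list. It was measured per gene as the standard deviation of log2 CPM within a genotype, pooled over both genotypes, and its median over all tested genes was 0.20. Only 302 tested genes (1.96%) had a pooled SD above 1. Of these, 244 were highest in WT replicate 2, and in 222 of them otp90 replicate 3 came next. WT replicate 1 was lowest in 170 and otp90 replicate 2 in 96. The genotypes did not overlap in 5 of the 302, beside 8.83% of all tested genes. Genes chosen for a wide spread within genotypes seldom separate them, so this count does not measure the genotype effect. Principal components of all tested genes gave a first axis with 56.1% of the variance, which placed WT replicate 2 at 49.7 and otp90 replicate 3 at 27.0, against -32.6 for WT replicate 1 and -23.8 for otp90 replicate 2. The largest axis of these libraries therefore ran within genotypes.

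PR1, whose product is the standard marker of salicylic acid defence, had 0.481, 277 and 10.3 CPM in the 3 WT libraries and 17.1, 2.62 and 79.4 CPM in otp90. Each genotype thus held a high and a low library, and the log2 fold change of -1.54 had a standard error (SE) of 1.90. PR2, a glucanase of the same response, had 15.7, 400 and 35.1 CPM in WT and 25.1, 16.5 and 103 CPM in otp90. PR5 had 12.3, 430 and 20.3 CPM in WT and 16.2, 11.4 and 78.9 CPM in otp90. The order of libraries was nearly the same for all 3 effectors, with WT replicate 2 first and otp90 replicate 3 next. ICS1, the enzyme that starts salicylic acid synthesis, had 10.2, 41.8 and 11.8 CPM in WT and 10.2, 8.55 and 27.4 CPM in otp90. PBS3, which acts after ICS1 in the same pathway, had 2.52, 46.0 and 5.43 CPM in WT and 4.3, 3.78 and 24.95 CPM in otp90. WRKY70, a transcription factor of the pathway, had 13.7, 75.3 and 19.3 CPM in WT and 42.0, 23.55 and 70.2 CPM in otp90.

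The salicylic acid list as a whole behaved in this way. Of its 20 members 19 were tested, none was at an unadjusted p under 0.05, none separated the genotypes, and 14 had a pooled SD above 1. Its median log2 fold change was -0.30 against a median SD of 1.29, beside 0.00 and 0.20 for all tested genes. The summed level of the list was 103, 674 and 165 CPM in WT and 207, 137 and 452 CPM in otp90. Its direction turned on WT replicate 2: without that library the median was 1.0, with 2 members higher at an unadjusted p under 0.05, and without any other library it stayed below 0. Among defence effectors and receptors, 10 of 20 tested members had an SD above 1, and the list median was -0.15 against an SD of 1.03. The receptor genes named here had values closer to each other. The flagellin receptor FLS2 had 21.9, 16.2 and 18.22 CPM in WT and 30.0, 16.5 and 26.2 CPM in otp90, and the co-receptor BAK1 had 12.7, 21.2 and 14.4 CPM in WT and 14.3, 11.5 and 18.24 CPM in otp90. In this bulk tissue, a difference in the number of responding cells and one in RNA per cell cannot be told apart.

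**Figure D1:**
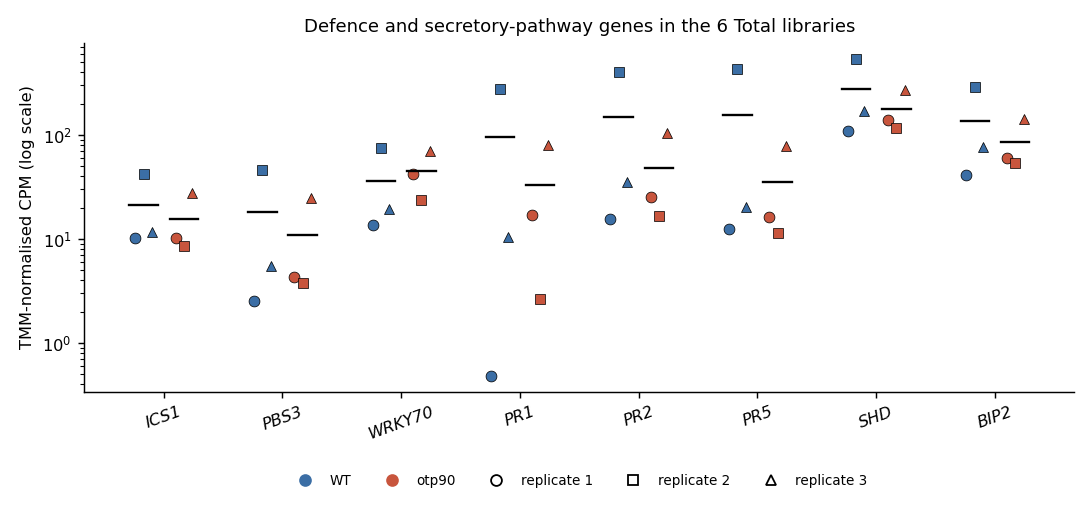
TMM-normalised CPM on a log axis of 8 genes of salicylic acid synthesis, defence and endoplasmic reticulum folding in the 6 Total libraries, with WT in blue, otp90 in red, a marker shape per replicate and a bar at each mean. WT replicate 2 and otp90 replicate 3 are the highest library of their genotype for all 8 genes, and for PR1 the WT libraries run from 0.481 to 277 CPM.

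The 10 genes with the largest spread among genes whose mean log2 CPM was 3 or more showed the same libraries at their extremes. UGT76B1, a glucosyltransferase that acts on salicylic acid, had 1, 2077 and 70 counts in WT and 156, 18 and 568 in otp90. The transporter gene ABCG40 had 0.231, 79.7 and 2.03 CPM in WT and 1.80, 0.366 and 12.6 CPM in otp90. TAT3, an aminotransferase, had 3.48, 120 and 13.1 CPM in WT and 12.9, 3.16 and 49.2 CPM in otp90. The others were PR1, PR5, ARD3, AIG1, CAX3, AT2G43570 and AT3G22910, with pooled SDs of 2.22 to 3.66, and WT replicate 2 was the highest library for all 10.

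Genes for folding in the endoplasmic reticulum moved with the defence genes. SHD, the HSP90 chaperone of this compartment, had 108, 543 and 170 CPM in WT and 139, 117 and 272 CPM in otp90. BIP2, its HSP70 chaperone, had 41.5, 287 and 76.7 CPM in WT and 59.6, 54.2 and 142 CPM in otp90. WT replicate 2 was the highest library for 13 of 13 tested members. None of them was at an unadjusted p under 0.05, and the list median of -0.57 lay inside its median SD of 0.96. Without WT replicate 2 that median was 0.33. Jasmonate and ethylene genes, which act in a different branch of defence, had their highest value in otp90 replicate 3 for 9 of 10 tested members, with a median of 0.22 and an SD of 0.73. VSP2, a jasmonate-responsive storage protein, had 0.462, 1.22 and 3.81 CPM in WT and 1.85, 1.85 and 4.5 CPM in otp90. The genotypes overlapped for all 10. In the senescence list 2 of 4 tested members had an SD above 1, and in the scavenging list 3 of 10. GSTF6, a glutathione transferase in that list, had 6.65, 182 and 23.4 CPM in WT and 21.5, 5.25 and 68.6 CPM in otp90.

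**Figure D2:**
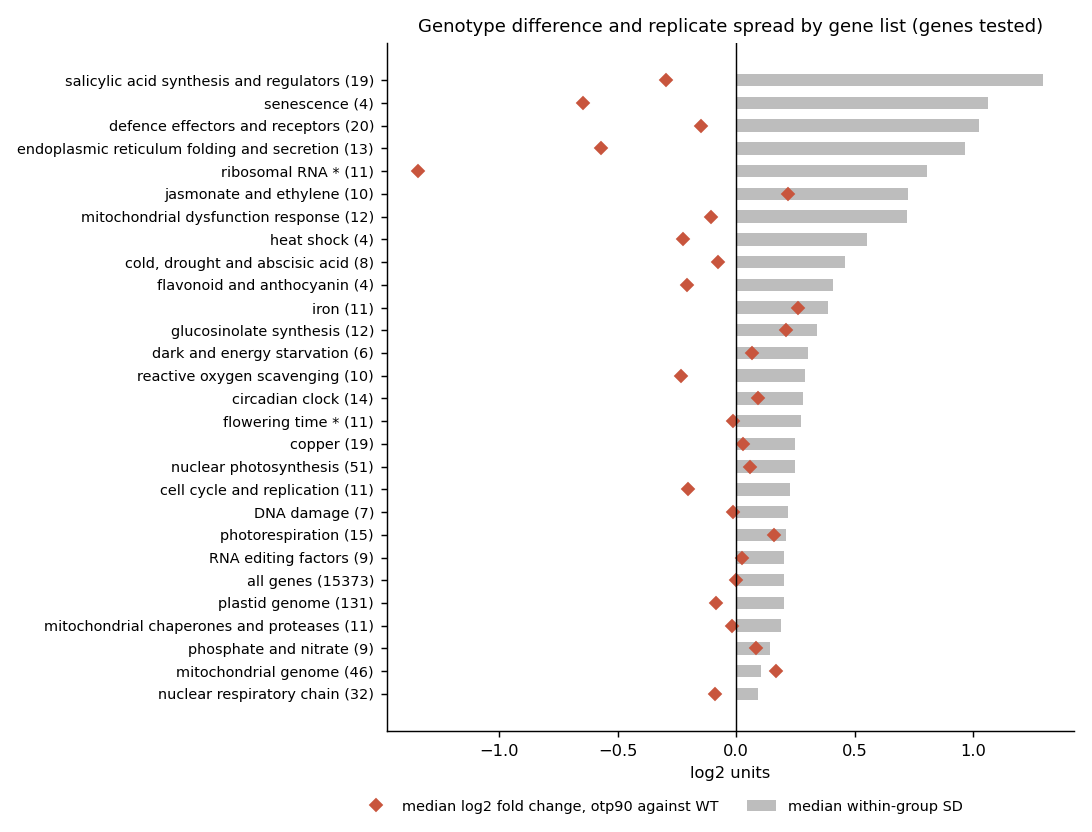
Median within-group SD of log2 CPM (grey bars) and median log2 fold change of otp90 against WT (red diamonds) for each pathway, organelle and added list with at least 3 tested members and for all genes, with the number tested in brackets and an asterisk on lists added after values were seen. The salicylic acid list has the longest bar at 1.29, and among the lists plotted the ribosomal RNA and mitochondrial genome lists are the ones whose diamond lies farther from 0 than their bar is long, at -1.34 and 0.17.

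Among 19 tested genes of copper homeostasis, 4 were higher and 3 lower in all otp90 libraries than in all WT libraries (21.1% and 15.8%, beside 4.59% and 4.25% of all genes). The list was chosen with earlier results of these data known, so these shares are not a separate result. Plants short of copper are known to spare it for plastocyanin and cytochrome c oxidase. The transcription factor SPL7 then raises the microRNA miR398, which lowers transcripts of copper/zinc superoxide dismutases, and the iron superoxide dismutase FSD1 takes over. The known targets of miR398 are CSD1, CSD2, their copper chaperone CCS and COX5B-1, a subunit of cytochrome c oxidase. The sequences are shown because the 4 target genes were lower together. They were read from the RefSeq TAIR10.1 genome, with the seed of the microRNA (bases 2 to 8) in capitals and, in each site, capitals for bases that form a Watson-Crick pair with miR398b.
ath-miR398a-3p (chr2:1041012-1041032, plus strand): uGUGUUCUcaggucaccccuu
ath-miR398b-3p (chr5:4691107-4691127, plus strand): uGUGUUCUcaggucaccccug
CSD1 site (chr1:2827177-2827685, plus strand, across an intron): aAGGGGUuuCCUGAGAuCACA
CCS site (chr1:4267521-4267541, minus strand): auuGGGaGACCUGgGAACACu
COX5B-1 site (chr3:5299204-5299224, plus strand): aAGGuGUGACCUGAGAAucac
CSD2 site (chr2:12015572-12015592, plus strand): ugcGGGUGACCUGgGAAacau
The mature miR398c, from a separate locus, has the sequence of miR398b, and all 3 share the seed. The sites are the best ungapped matches in each transcript, scored with 1 for a mismatch and 0.5 for a G:U pair, doubled at microRNA positions 2 to 12. The CSD1 site, in the 5′ untranslated region, scored 5, which 8 of 27440 scanned genes equalled or bettered. The CCS site, in the coding region, scored 6 (30 genes), the COX5B-1 site in the 5′ untranslated region 8 (653 genes) and the CSD2 site in the coding region 10 (7362 genes). Bulged pairing was not scanned, and a match is a description of sequence only. Among the 8 genes that scored 5 or less, CSD1 was the only one whose genotypes did not overlap, beside 8.83% of all tested genes. Of these 8, AT3G19230, GH9A4 and AT3G53590 were under the filter on low counts, and AT5G14550 lies opposite MIR398B. With so few genes the comparison does not tie the level of CSD1 to its site.

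CSD2, the plastid copper/zinc superoxide dismutase, had 48.2, 66.6 and 39.2 CPM in WT and 9.31, 19.9 and 8.68 CPM in otp90. All otp90 libraries were below all WT libraries, with a log2 fold change of -2.02 (SE 0.37, unadjusted p = 0.00106, edgeR). CSD1, the cytosolic enzyme, had 32.4, 90.2 and 30.4 CPM in WT and 11.7, 16.7 and 14.9 CPM in otp90. The groups were apart again, and the log2 fold change was -1.82 (SE 0.44, unadjusted p = 0.00493). WT replicate 2, the library with the highest PR1, was also the highest for CSD1, CSD2, CCS and, narrowly, COX5B-1. Without it the log2 fold change of CSD1 was -1.11. With the level of the salicylic acid list as a covariate, the log2 fold change of CSD1 was -1.66 and the log2 fold change of CSD2 was -2.03. CCS, the chaperone that loads copper into both enzymes, had 9.71, 14.2 and 9.59 CPM in WT and 5.20, 6.41 and 4.97 CPM in otp90. Its log2 fold change was -1.01 (SE 0.19, unadjusted p = 0.00136). COX5B-1 had 20.2, 20.5 and 18.7 CPM in WT and 13.3, 15.4 and 13.1 CPM in otp90. It differed less, by -0.51 (SE 0.11, unadjusted p = 0.00268), but with little spread. Its paralog COX5B-2 had 11.2, 12.7 and 11.1 CPM in WT and 10.5, 10.9 and 11.5 CPM in otp90, with overlap. CSD3, the peroxisomal copper/zinc enzyme, also overlapped, at 8.04, 4.36 and 7.44 CPM in WT and 7.46, 6.50 and 6.12 CPM in otp90.

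The microRNA locus went the other way. MIR398B had 48, 46 and 62 counts in WT and 113, 98 and 108 in otp90, or 0.923, 0.802 and 1.26 CPM against 1.97, 1.63 and 1.94 CPM. The otp90 libraries were all higher, with a log2 fold change of 0.90 (SE 0.21, unadjusted p = 0.00421). In WT only replicate 3 exceeded the filter of 1 CPM, so MIR398B was tested through the group where it was higher. These reads come from the precursor, and the mature microRNA was not measured. MIR398C had 22, 20 and 30 counts in WT and 50, 38 and 29 in otp90 and did not pass the filter on low counts, and MIR398A had 0 counts in all 6 libraries. AT5G14550, the gene on the opposite strand of MIR398B, had a log2 fold change of 0.26 (unadjusted p = 0.28) with overlap. YSL2, a transporter of metals bound to nicotianamine, had 1.37, 1.48 and 1.56 CPM in WT and 3.20, 4.41 and 3.67 CPM in otp90. Its log2 fold change of 1.36 (SE 0.16) had the smallest p of all 15373 genes, 8.94e-05 before adjustment.

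SPL7 is known to bind GTAC motifs, so the 250 bases before the annotated starts of MIR398B and YSL2 are shown, from the same genome, with each GTAC in capitals.
MIR398B (chr5:4690772-4691021, plus strand): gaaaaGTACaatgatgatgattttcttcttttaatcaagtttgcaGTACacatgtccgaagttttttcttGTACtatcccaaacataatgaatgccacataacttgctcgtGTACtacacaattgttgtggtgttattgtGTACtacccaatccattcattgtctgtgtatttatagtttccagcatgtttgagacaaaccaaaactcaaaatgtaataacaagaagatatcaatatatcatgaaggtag
YSL2 (chr5:8323645-8323894, plus strand): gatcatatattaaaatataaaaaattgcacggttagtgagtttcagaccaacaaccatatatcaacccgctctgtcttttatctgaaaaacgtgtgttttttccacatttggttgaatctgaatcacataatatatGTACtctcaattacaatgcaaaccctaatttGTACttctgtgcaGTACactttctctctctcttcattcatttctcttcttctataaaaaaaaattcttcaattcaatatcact
GTAC reads the same on both strands. The MIR398B window held 5, and 0.0492% of 32545 windows of that length held at least as many. YSL2 and MIR398C held 3 (1.42% of windows), CSD1 2 (7.8%), and FSD1, CCH and CCS 1 each (34.7%), while COPT2 and CSD2 held none in this window. The counts say nothing of binding in these leaves.

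Other genes of copper supply were mixed. CCH, a copper chaperone, had 58.3, 38.4 and 59.2 CPM in WT and 80.9, 78.8 and 97.8 CPM in otp90, a log2 fold change of 0.72 (SE 0.20, unadjusted p = 0.00811) with no overlap. FSD1 had 371, 193 and 401 CPM in WT and 499, 468 and 484 CPM in otp90. It was higher in every otp90 library, but WT replicate 2 was far below the other WT libraries and the log2 fold change was 0.59 (SE 0.27, unadjusted p = 0.0649). COPT2, a copper uptake transporter, was under the filter with 42, 40 and 23 counts in WT and 52, 108 and 88 in otp90. SPL7 had 4.33, 6.19 and 4.97 CPM in WT and 4.65, 5.5 and 5.24 CPM in otp90, and the plastocyanin genes PETE1 and PETE2 had log2 fold changes of -0.04 and 0.03. In all, 19 of the 29 listed copper genes were tested, 3 were higher and 3 lower at an unadjusted p under 0.05 (31.6% of the list, beside 2.98% of all genes), and the list median of 0.03 hid both directions. These 6 members were CCH, MIR398B and YSL2 against CSD1, CSD2 and CCS. The study had reported CSD1 and CSD2 as downregulated in otp90, and the list was chosen with earlier results known. The share of the list at an unadjusted p under 0.05 is therefore not a separate result. None of the 6 members passed over all genes in the quasi-likelihood test. The likelihood ratio test called YSL2, CSD2 and CCS, and the DESeq2 Wald test these and CSD1.

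**Figure D3:**
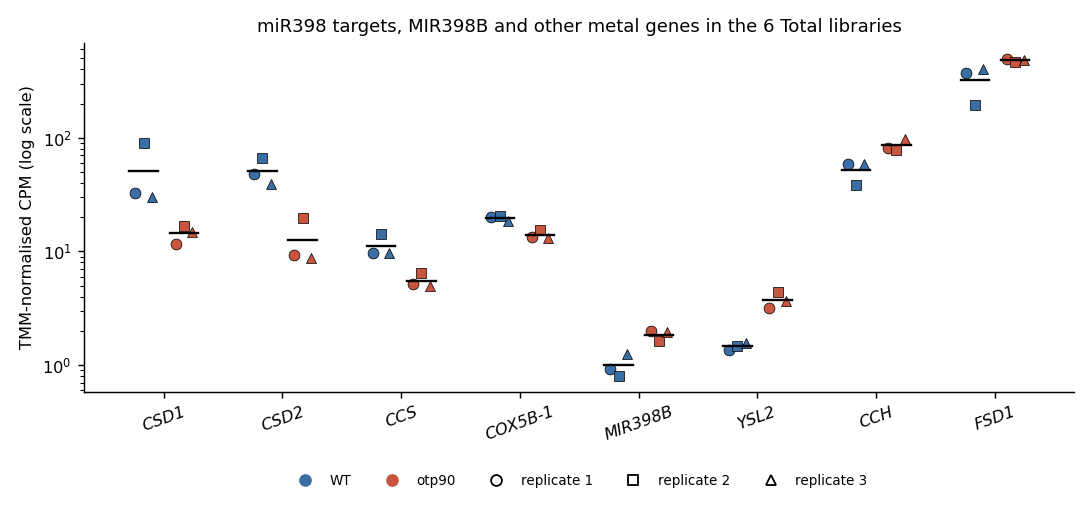
TMM-normalised CPM on a log axis of 4 miR398 target genes, the MIR398B precursor and 3 further metal-related genes in the 6 Total libraries, with WT in blue, otp90 in red and a bar at each mean. The otp90 points of CSD1, CSD2, CCS and COX5B-1 lie below all WT points and those of the other genes above, while WT replicate 2 (squares) stands apart for CSD1 and FSD1.

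The Mito libraries offered separate measurements of the same genes, with a common dispersion of 0.00901 beside 0.0516 in Total. There, 10 of 16570 genes were called (0.0604%), or 221 with the replicate number as a block. The count was 64 without WT replicate 3 of Mito and 2 without any other single Mito library. CSD1 was lower by a log2 fold change of -0.99 (adjusted p = 0.00222), CSD2 by -1.05 (adjusted p = 0.00211) and CCS by -0.71 (adjusted p = 0.0223), and FSD1 was higher by 0.58 (adjusted p = 0.0223; all edgeR). CSD1 and CSD2 were called with each of the 6 Mito libraries left out, CCS and FSD1 in 1 of these 6 fits, and FSD1 was not called with library size alone (adjusted p = 0.104). These fits had no replicate block. With the block, the adjusted p of edgeR was 0.00139 for CCS and 0.00135 for FSD1. COX5B-1 had -0.10 (adjusted p = 0.86) in Mito, and the difference from its value in Total had an unadjusted p of 0.0133 (adjusted p = 0.93). YSL2 had 0.96 (adjusted p = 0.0551). In the test of the genotype effect in Total against that in Mito, 0 of 16825 genes passed (0%), 853 were at an unadjusted p under 0.05, and the DESeq2 Wald test called 6.

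Iron genes were examined beside copper. FER1, a plastid ferritin that stores iron, had 45.6, 41.1 and 53.4 CPM in WT and 58.9, 120 and 80.9 CPM in otp90, a log2 fold change of 0.89 (SE 0.26, unadjusted p = 0.0123). NAS4 and NAS3 make nicotianamine, the metal ligand that YSL transporters carry. NAS4 had 5.10, 2.09 and 3.83 CPM in WT and 5.33, 6.86 and 6.88 CPM in otp90. NAS3 had 6.06, 1.36 and 3.87 CPM in WT and 6.95, 7.21 and 15.7 CPM in otp90. All 3 were higher in every otp90 library, and for NAS3 and NAS4 WT replicate 2 was the lowest. They were the 3 of 11 tested iron genes at an unadjusted p under 0.05 (27.3%, beside 2.98% of all genes), and 1 of 11 was without WT replicate 2 and otp90 replicate 3. NAS1 had 14.4, 0.680 and 7.78 CPM in WT and 9.73, 10.2 and 16.7 CPM in otp90, with overlap. Of the genes that respond to iron shortage, BHLH38, BHLH39, BHLH100 and BHLH101 had at most 0.0524 CPM in any library, and the regulator BTS had a log2 fold change of -0.04.

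Genes of the mitochondrial genome, which encodes proteins, ribosomal RNAs and tRNAs, had a median slightly above 0. Of 62 genes 46 were tested, 35 had a log2 fold change above 0, 13 were higher and 2 lower at an unadjusted p under 0.05, and 18 were higher and 2 lower without overlap (39.1% of the list higher, beside 4.59% of all genes). The median log2 fold change was 0.17 and the median SD 0.11. Without WT replicate 2 and otp90 replicate 3 the count was 24 higher, and with library size alone 6, where the median was 0.08. These genes share transcription and RNA processing and are not independent. The 3 smallest p-values of the list belonged to complex I genes. nad6 had 214, 214 and 216 CPM in WT and 301, 305 and 276 CPM in otp90, a log2 fold change of 0.45 (SE 0.11, unadjusted p = 0.00404). Exons of nad5 annotated as ATMG00513 had 230, 263 and 255.6 CPM in WT and 358, 373 and 322 CPM in otp90 (log2 fold change 0.49, SE 0.12). Those of nad1 annotated as ATMG00516 had 8.17, 8.26 and 7.88 CPM in WT and 11.1, 12.2 and 10.4 CPM in otp90 (0.47, SE 0.10).

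Several genes of cytochrome c maturation and of complexes III and IV lay in the same direction. ccmC had 29.0, 36.6 and 32.6 CPM in WT and 50.2, 56.2 and 39.3 CPM in otp90, with a log2 fold change of 0.57 (SE 0.17). ccmB had 23.64, 29.2 and 25.3 CPM in WT and 31.8, 37.5 and 31.1 CPM in otp90. ccmFC had 108, 112 and 115 CPM in WT and 141, 152 and 136 CPM in otp90. In each of them the otp90 libraries were above all WT libraries. The cytochrome c oxidase gene cox1 had 792, 770 and 852 CPM in WT and 998, 1008 and 994 CPM in otp90 (log2 fold change 0.31, SE 0.11). The cytochrome b gene cob had 373, 389 and 385 CPM in WT and 463, 456 and 442 CPM in otp90 (0.25, SE 0.10). ATP synthase genes differed less: atp1 had a log2 fold change of 0.08, atp9 of -0.02 and the copies of atp6 of -0.03 and -0.04, all with overlap. The mitochondrial share of counts was 0.959 to 1.19% in WT and 0.965 to 1.02% in otp90.

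**Figure D4:**
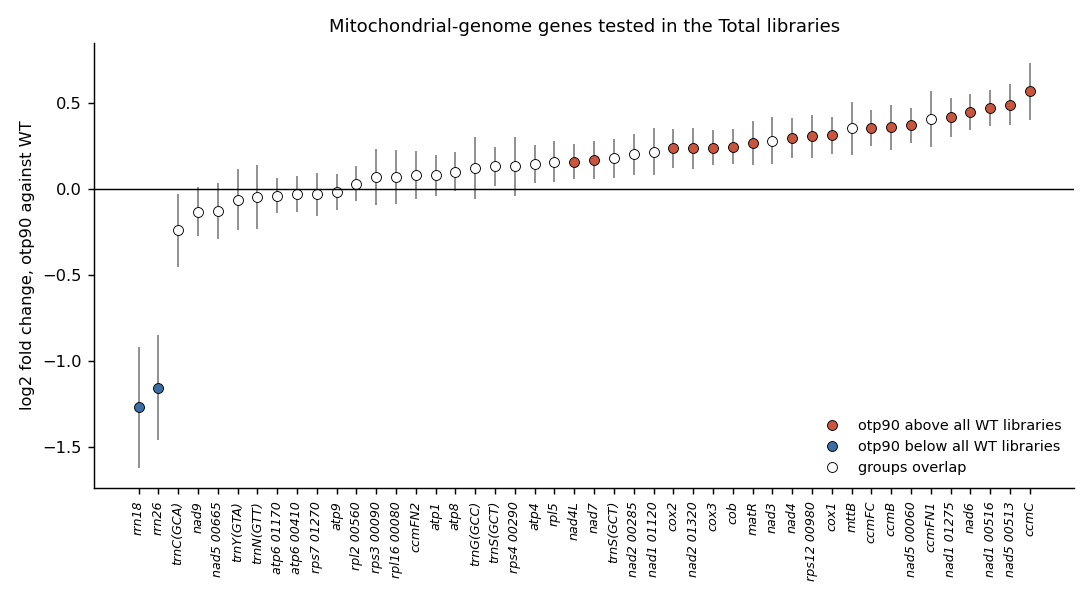
Log2 fold change of otp90 against WT (points) with its standard error (bars) for the 46 tested genes of the mitochondrial genome in Total, ordered by value, with numbers after repeated names giving the last digits of the identifier. Filled red points, 18 in all, have all otp90 libraries above all WT libraries, and the filled blue points, rrn18 and rrn26, have them below.

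The mitochondrial genes that lay lower in every otp90 library were ribosomal RNAs, and ribosomal RNAs of all 3 genomes had lower values in otp90. This list was put together after the values were seen, and the kit depletes ribosomal RNA before sequencing, so the counts are what depletion left. rrn26 had 1218, 1178 and 1451 CPM in WT and 763, 325 and 638 CPM in otp90. rrn18 had 414, 406 and 503 CPM in WT and 244, 90.6 and 215 CPM in otp90. The plastid rrn16S had 60.2, 107 and 135 CPM in WT and 57.9, 16.3 and 45.1 CPM in otp90. The nuclear 18S gene AT3G41768 had 35796, 160674 and 185537 counts in WT and 69187, 7086 and 36257 in otp90, with overlap and a log2 fold change of -1.87 (SE 0.89, unadjusted p = 0.0746). otp90 replicate 2 was the lowest library for 11 of the 11 tested members, and 7 were at an unadjusted p under 0.05, all lower (63.6%, beside 2.98% of all genes). Copies of the plastid inverted repeat and of nuclear rRNA count the same reads. AT3G06355, an RNA on chromosome 3 that overlaps the annotated 5.8S gene AT3G41979, had 119, 121 and 137 CPM in WT and 44.5, 16.4 and 34.8 CPM in otp90 (log2 fold change -1.98, SE 0.35). In Mito the same genes had values of the opposite sign, such as 0.98 for rrn26 (adjusted p = 0.717), and the difference of rrn26 between extracts had an unadjusted p of 0.0079 (adjusted p = 0.93). Whether depletion efficiency plays a part was not tested.

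Nuclear genes of the respiratory chain, on the contrary, mostly had values slightly below 0. All 32 listed genes were tested, 30 had a log2 fold change below 0, and 12 were lower in every otp90 library (37.5%, beside 4.25% of all genes), against 0 higher. The sizes were small, with a median of -0.09 and a median SD of 0.09. WT replicate 2 was the highest library for 26 of the 32, and with library size alone the median was -0.18, where that of all genes was -0.09. Beside COX5B-1, only CAL1, a carbonic anhydrase-like subunit of complex I, was at an unadjusted p under 0.05. It had 17.8, 18.0 and 16.5 CPM in WT and 14.4, 15.3 and 13.5 CPM in otp90, a log2 fold change of -0.27 (SE 0.10). Without WT replicate 2, 1 listed gene was at an unadjusted p under 0.05. Subunits of ATP synthase and of complex III were close behind, such as ATP5 at 49.3, 50.8 and 50.1 CPM in WT and 44.9, 45.7 and 42.6 CPM in otp90. CCMH, a cytochrome c maturation factor, had 1.87, 1.73 and 1.68 CPM in WT and 2.01, 1.80 and 2.32 CPM in otp90, with a log2 fold change of 0.22. Mitochondrial chaperones and proteases had a median of -0.02 over 11 tested genes, none of them at an unadjusted p under 0.05, and the editing factors of the MORF family, DYW2 and NUWA a median of 0.03 over 9.

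The tested genes of the mitochondrial dysfunction response overlapped between the genotypes. AOX1A had 7.83, 16.5 and 8.55 CPM in WT and 13.05, 10.01 and 17.2 CPM in otp90, with overlap and a log2 fold change of 0.29 (SE 0.33). OM66, an outer membrane AAA protein, had 2.87, 20.9 and 5.61 CPM in WT and 3.72, 2.43 and 12.2 CPM in otp90, and the NADH dehydrogenase gene NDB2 4.65, 34.8 and 8.33 CPM in WT and 6.37, 7.18 and 18.24 CPM in otp90. All 3 genes had WT replicate 2 and otp90 replicate 3 on top, like PR1. Of 12 tested members 5 had an SD above 1 and none was at an unadjusted p under 0.05. The rest of the 22 listed members were under the filter on low counts. Among these, AT12CYS-2 and UPOX are named after their values were seen and do not stand for the others. AT12CYS-2 had 1, 0 and 0 counts in WT and 27, 62 and 52 in otp90. The WT counts lie under the floor of 3 counts (0.0496 to 0.0607 CPM). UPOX had 24, 20 and 12 counts in WT and 35, 64 and 30 in otp90. Without the filter, the quasi-likelihood test called 0 of 25010 genes. ANAC017, the transcription factor that acts at the head of this response, had a log2 fold change of 0.01.

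Plastid genes were nearly all tested (131 of 133), with a median log2 fold change of -0.08 and a median SD of 0.20. At an unadjusted p under 0.05, 2 were higher and 12 lower (10.7% of the list, beside 2.98% of all genes), or 26 lower with library size alone. Of the 12 lower genes, 4 were ribosomal RNA genes in the inverted repeat and 2 the copies of trnA beside them. Small subunits of the photosynthetic complexes made up most of the others. petL, a subunit of the cytochrome b6f complex, had 274, 227 and 211 CPM in WT and 136, 142 and 150 CPM in otp90, a log2 fold change of -0.73 (SE 0.14, unadjusted p = 0.00112). psbI, a small subunit of photosystem II, had 706, 625 and 646 CPM in WT and 510, 473 and 501 CPM in otp90 (log2 fold change -0.41, SE 0.11). The photosystem I subunit gene psaI had 727, 545 and 619 CPM in WT and 457, 430 and 491 CPM in otp90 (-0.46, SE 0.14). These genes are very short, and their transcripts are fragments of longer precursors. psbN, which lies on the strand opposite to the psbB cluster, had 366, 504 and 447 CPM in WT and 629, 640 and 671 CPM in otp90, a log2 fold change of 0.56 (SE 0.15). psbA was higher in all 3 otp90 libraries after TMM scaling (log2 fold change 0.28, unadjusted p = 0.126). Its unscaled share of counts overlapped, at 29.5, 24.5 and 26.8% in WT and 29.3, 30.1 and 34.8% in otp90. WT replicate 3 was the highest library for 87 of the 131 genes and otp90 replicate 3 the lowest for 87.

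Nuclear photosynthesis genes showed little difference between genotypes. Their median over 51 genes was 0.06 with an SD of 0.25, and WT replicate 2 was the lowest library for 46 of them. LHCB4.3, a light-harvesting protein of photosystem II, was the only member at an unadjusted p under 0.05 (1.96% of the list, beside 2.98% of all genes). It had 15.1, 17.1 and 19.2 CPM in WT and 12.96, 11.8 and 7.98 CPM in otp90, a log2 fold change of -0.65 (SE 0.20). The other members ran from -0.21 to 0.17. Photorespiration genes had a median of 0.16 over 15, with GGT1, a peroxisomal aminotransferase, higher in every otp90 library at 797, 692 and 825 CPM in WT and 872, 849 and 927 CPM in otp90.

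Metabolic and stress lists held a few separated genes. CYP79F1 and CYP79F2 are neighbouring paralogs that start the synthesis of methionine-derived glucosinolates, and reads that fit both were counted for each. CYP79F2 was found by its p and is not in the glucosinolate list. It had 1.96, 1.64 and 1.89 CPM in WT and 2.76, 3.51 and 2.86 CPM in otp90 (log2 fold change 0.74, SE 0.16). CYP79F1 had 84.1, 59.0 and 75.3 CPM in WT and 86.2, 104 and 94.6 CPM in otp90 (0.38, SE 0.16). The 12 listed glucosinolate genes had a median of 0.21, 11 were above 0, and 3 were higher without overlap (25%, beside 4.59% of all genes). PHO2, the ubiquitin-conjugating enzyme that limits phosphate uptake, had 27.8, 27.4 and 33.4 CPM in WT and 42.5, 55.4 and 44.6 CPM in otp90, a log2 fold change of 0.69 (SE 0.15, unadjusted p = 0.00255). It was found by its p and not from the phosphate list. In that list SPX1, a phosphate sensor protein, was the 1 of 9 tested members at an unadjusted p under 0.05 (11.1%, beside 2.98% of all genes). SPX1 had 5.48, 4.03 and 6.18 CPM in WT and 7.75, 6.05 and 7.96 CPM in otp90, which overlap. GMI1, named for its induction by DNA damage, had 0.731, 0.680 and 0.649 CPM in WT and 1.08, 1.2 and 1.1 CPM in otp90 (log2 fold change 0.71, SE 0.18). In Total GMI1 exceeded the filter of 1 CPM only in otp90, the group where it was higher. It was called in Mito, at 0.98 (adjusted p = 0.0223), and in 1 of the 6 fits that left out a Mito library. The other 6 tested DNA damage genes, BRCA1, PARP1 and RAD17 among them, overlapped. Circadian, cold and drought, heat shock, flavonoid and cell cycle lists had no tested member at an unadjusted p under 0.05, with medians of 0.09, -0.08, -0.22, -0.21 and -0.20.

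Genes of flowering time were looked at after FLC was seen among the lowest p-values. FLC, a MADS-box repressor of flowering, had 71, 148 and 212 counts in WT and 21, 9 and 17 in otp90, or 1.37, 2.58 and 4.3 CPM against 0.367, 0.15 and 0.306 CPM. All otp90 libraries were below all WT libraries, with a log2 fold change of -3.32 (SE 0.52, unadjusted p = 4e-04). AGL19, a MADS-box activator of flowering, had 0.365, 0.593 and 0.730 CPM in WT and 1.97, 2.07 and 2.47 CPM in otp90, a log2 fold change of 1.94 (SE 0.27, unadjusted p = 0.000181). FLC exceeded the filter of 1 CPM only in WT and AGL19 only in otp90, so each was tested only through the group where it was high. SOC1, which FLC is known to repress, had 16.1, 12.8 and 10.6 CPM in WT and 21.9, 16.0 and 21.1 CPM in otp90. These values overlapped narrowly (log2 fold change 0.58, unadjusted p = 0.0217). FT, the mobile flowering signal, had 3, 4 and 3 counts in WT and 10, 15 and 23 in otp90 and was not tested. The relatives of FLC were alike in both genotypes, with MAF1 at 0.06 and MAF2 at -0.01, and SVP, a partner of FLC, had 0.20. AP1, a marker of floral meristems, had 0 counts in all 6 libraries. In Mito the log2 fold change of FLC was -0.69 (adjusted p = 0.407). The difference between extracts had an unadjusted p of 0.000841 and an adjusted p of 0.93 (edgeR), for a gene picked by its value in Total. Of 18 flowering genes 11 were tested, 2 were higher and 1 lower at an unadjusted p under 0.05 (27.3%, beside 2.98% of all genes). The list was drawn up after FLC was seen and FLC is counted in it, so this share is not a separate result.

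**Figure D5:**
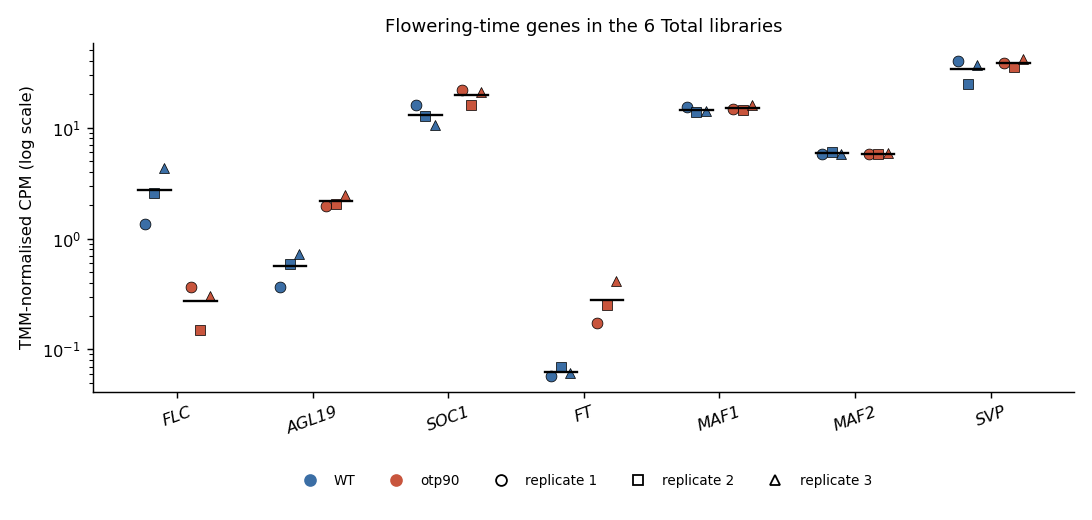
TMM-normalised CPM on a log axis of 7 flowering-time genes in the 6 Total libraries, with WT in blue, otp90 in red and a bar at each mean. FLC lies lower in all otp90 libraries, AGL19 and FT lie higher, and MAF1, MAF2 and SVP overlap.

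The remaining genes among the 10 lowest p-values in each direction belonged to no pathway list. AT1G22550, a transporter of the NPF family, had 1.65, 1.67 and 1.78 CPM in WT and 3.51, 3.75 and 2.88 CPM in otp90 (log2 fold change 0.99, SE 0.15). It was one of the genes called in Mito, at 0.91 (adjusted p = 0.026), and was called in 1 of the 6 fits that left out a Mito library. BAM6, a member of the beta-amylase family, had 1.62, 0.767 and 1.5 CPM in WT and 2.99, 4.51 and 4.5 CPM in otp90 (1.63, SE 0.31). The jacalin lectin gene PBP1/AT3G16420 had 2.19, 2.3 and 2.07 CPM in WT and 3.69, 4.21 and 6.28 CPM in otp90 (1.11, SE 0.22). AT4G28350 had 1.0, 0.889 and 0.892 CPM in WT and 1.92, 1.68 and 1.76 CPM in otp90. AT3G29644, an antisense RNA, had 16, 19 and 28 counts in WT and 93, 76 and 68 in otp90 (1.77, SE 0.29), and exceeded the filter of 1 CPM only in otp90. All 5 lay higher in every otp90 library.

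Among the lower genes, CWLP, a cell wall linker protein, had 12.5, 13.6 and 14.5 CPM in WT and 9.01, 6.73 and 6.84 CPM in otp90 (log2 fold change -0.84, SE 0.15). Its neighbour AT3G22142 had 3.13, 1.83 and 2.66 CPM in WT and 1.38, 1.08 and 1.06 CPM in otp90, and shared reads of the pair cannot be separated. AT3G58510, a DEAD-box RNA helicase gene, had 3.15, 4.04 and 3.99 CPM in WT and 2.06, 2.1 and 2.0 CPM in otp90 (-0.86, SE 0.14). MAP1C, an organellar methionine aminopeptidase, had 10.3, 9.43 and 10.03 CPM in WT and 7.14, 7.25 and 6.03 CPM in otp90 (-0.54, SE 0.12). AT2G16586 had 313, 315 and 320 CPM in WT and 223, 207 and 186 CPM in otp90. In each of these 5 genes the 3 otp90 libraries were below the WT libraries.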

How the data were processed

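The authors deposited raw counts per gene, 1 table per library. Per the file headers they were made with featureCounts 1.6.3 over exons with strand setting 2 and multi-mapping reads counted. The study's methods describe stranded, single-end libraries depleted of ribosomal RNA, which STAR aligned without opening introns to the release 39 genome with a Col-0 mitochondrial chromosome. Reads across junctions and short exons are thus lost, and copies share counts. Groups came from the labels, and no column of values was left out (0 unused).

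Counts were tested with edgeR 4.0.16 in R 4.3.3 (TMM, quasi-likelihood, genotype only) in genes that exceeded 1 CPM in 3 or more of the 6 libraries, and adjusted by Benjamini-Hochberg at 0.05. SEs were calculated back from the F statistic. Log2 values for spread used a prior count of 2. Alternatives used limma 3.58.1 and DESeq2 1.42.0. The script was tested on simulated data. The floor of 3 counts covers counting error only. Replicate pairs differed by a chi-square per degree of freedom of 20.9 to 88.3.

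The members and lists were chosen with earlier results of these data known. Named genes are, by rule, OTP90, per list the 3 members with the smallest p and the 3 with the largest SD, the 10 smallest p-values in each direction and the 10 largest SDs. Values by library are printed for lists with such members at an unadjusted p under 0.05 or an SD above 1 and others are counted. Genes named beyond the rule were chosen after their values were seen. All 32548 nuclear identifiers matched the RefSeq TAIR10.1 annotation. The replicate number was checked as a pairing. In Mito, the deviations of same-numbered libraries all correlated positively (r = 0.41, 0.40 and 0.10), so the blocked count is printed beside the unblocked one.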

Additional observations from a re-analysis of the deposited data

How the results depend on the processing

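The count of 0 genes in Total held under every alternative with a quasi-likelihood test of the 6 libraries, under limma voom and with each library left out. It was 11 with the likelihood ratio test, 9 with that test and the replicate block, 18 with the DESeq2 Wald test and 3 with all 12 libraries. The replicate block in the main test gave 0. In Total, the deviations of libraries with the same number correlated with mixed signs (r = 0.27, -0.39 and -0.37), so the number gave no consistent pairing. In Mito the 10 genes became 221 with the replicate block, 22 with DESeq2 size factors and 2 to 64 with a library left out. The extract difference had 6 genes with the DESeq2 Wald test. The 62 genes refitted were the 10 lowest p-values in each direction, list members at an unadjusted p under 0.05 and genes called in Mito. Of their 1132 values under alternatives, 1092 kept their direction and side of the threshold, 40 passed it and 0 reversed. A kept direction was largely set by this choice, and genes of wide spread such as PR1 and ICS1 were not among them. Fits in which a gene was not tested gave no value. Of 541 values of 29 list medians, 11 moved by more than the spread. With library size alone they were -0.18 (nuclear respiratory chain), -0.0098 (phosphate and nitrate) and 0.084 (mitochondrial genome). With limma voom the circadian median was -0.019. Without WT replicate 2 and otp90 replicate 3 together, a setting chosen after seeing the data, they were 0.025 (cell cycle) and 0.27 (mitochondrial genome). With 1 library left out, medians ran from -1.02 to 1.0 (salicylic acid), 0.0053 to 0.12 (copper), -0.039 to 0.13 (circadian), -0.55 to -0.036 (flavonoid) and -0.064 to 0.23 (DNA damage). The causes were not tested.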
